A study of Mus musculus with 6 samples.

Results

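The genes described here are 34 nuclear genes of pyruvate oxidation and the TCA cycle, out of 55774 genes in the expression table of mouse blastocysts. The rule that lists them names functions and uses no measured value, though it was written with earlier results of these data known. They encode the carrier that brings pyruvate into mitochondria, the pyruvate dehydrogenase (PDH) complex with its kinases and phosphatase, the cycle enzymes including complex II, the malate-aspartate shuttle, and 3 proteins that feed the cycle or take citrate out of it. Each of the 34 symbols matched 1 Ensembl identifier of the table.

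The libraries were made from wild-type ICR embryos of female mice aged 6 to 8 weeks. Embryos of both groups were cultured for 75 hours in CZB medium, which supplies pyruvate, lactate and glutamine, and both groups received oviductal extracellular vesicles (oEVs), the membrane particles that cells shed into the fluid of the human Fallopian tube. In the oEV-EMT group the vesicle donors had endometriosis, and in the oEV-ctrl group they did not. The labels and the methods of the study differ on the control donors, who had uterine fibroids by the labels and cervical intraepithelial neoplasia by the methods, and on the embryos put in culture, at the 2-cell stage by the labels and zygotes by the methods. Each group had 3 libraries of 10 pooled blastocysts, and no library of embryos cultured without vesicles was analysed here. Whether the 3 pools of a group came from separate cultures or vesicle preparations is not stated, so the p-values measure the spread between these pools. A pool of blastocysts holds several cell types, and in such pools fewer cells that express a gene cannot be told apart from less RNA per cell.

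Pyruvate made from glucose or taken up from the medium enters the mitochondrion through a carrier and is turned into acetyl-CoA by the PDH complex, which kinases switch off and phosphatases switch on. Citrate synthase joins acetyl-CoA to oxaloacetate, and the cycle then oxidises citrate by way of 2-oxoglutarate, succinate, fumarate and malate, handing electrons to NADH and, at complex II, directly to the respiratory chain. The malate-aspartate shuttle carries the electrons of cytosolic NADH into the mitochondrion. Early cleavage-stage mouse embryos depend on pyruvate, and use of glucose grows towards the blastocyst stage.

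Levels are given as FPKM, in which fragments are counted per kilobase of transcript and per 1000000 fragments, so levels of different genes are compared per length. Values of a group are given in the order of replicates 1, 2 and 3. Low values in genes with a single transcript fell on steps, from which 1 FPKM in a transcript of 1 kilobase corresponded to between 17.8 (oEV-ctrl 1) and 36.8 (oEV-EMT 1) read pairs. Many genes also lay midway between 0 and 1 step, 139 against 157 at 1 step in oEV-EMT 1 and 165 against 194 in oEV-ctrl 1. Numbers of read pairs are therefore approximate. Trophectoderm markers such as *Krt8* and *Krt18* were abundant in every library, and all 8 of that list were tested. Of 7 cumulus and granulosa cell markers 0 passed the filter and 5 were at 0 in every library, and of 5 markers of oviduct epithelium 0 passed and 3 were at 0. The haemoglobin gene *Hbb-bs* and the leucocyte marker *Ptprc* were at 0 in every library, and the haemoglobin gene *Hba-a1* ranged from 0.472 to 2.22 FPKM with overlap between the groups. The remaining blood marker, *Cd68*, was higher in every oEV-EMT library than in every oEV-ctrl library, with values given below.

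Of the 34 genes, 30 reached 1 FPKM in 3 or more libraries and entered the fit, and *Pdk1*, *Pdk2*, *Pdp1* and *Pcx* did not. The fit covered 11924 genes, with limma on log2(FPKM + 1) and Benjamini-Hochberg adjustment over all of them. SE stands for the standard error of a fitted log2 fold change. At the thresholds of the study, an adjusted p of at most 0.05 together with a log2 fold change of 1 or more in size, 0 of the 30 genes passed, against 0% of all genes tested. The study itself reported changed genes at these thresholds with DESeq2, a different test. As the fit used here called 0 genes, its count of 0 does not set the 30 apart. The adjusted p-values of the 30 ran from 0.199 to 0.999. At an unadjusted p of at most 0.05, 6 of the 30 (20%) were higher in oEV-EMT, where 12.8% of all tested genes were, and 0 were lower, where 2.55% were. The 6 genes were *Got1*, *Idh3g*, *Mdh2*, *Pdk3*, *Sdhc* and *Slc25a1*. In these and in *Sdhd* the lowest oEV-EMT value exceeded the highest oEV-ctrl value, which makes 7 of 30 genes (23.3%) against 18.1% of all genes tested. In the other direction 0 of the 30 were without overlap, against 4.34%. The count of 6 became 10 without oEV-EMT 1, where 13.4% of all tested genes were higher, 3 without oEV-EMT 2 (9.34% of all genes) and 2 without oEV-ctrl 2 (8.27%).

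This balance of directions moves with the scaling between libraries. In the values as deposited the median log2 fold change of all tested genes was 0.17, so for lists and for the genes without overlap changes are given below also relative to that median. After median-of-ratios scaling, which brings the median of all genes to 0.011, 2 of the 30 genes were higher at an unadjusted p of at most 0.05 (*Sdhc* and *Slc25a1*, against 6.47% of all genes) and 1 was lower (*Mpc1*, against 6.46%). Without overlap, 4 were higher (*Got1*, *Idh3g*, *Sdhc* and *Slc25a1*, against 9.81%) and 2 lower (*Dlat* and *Pdha1*, against 10.3%). After upper quartile scaling, 1 gene was higher (*Slc25a1*, against 5.93%) and 1 lower (*Mpc1*, against 6.73%), with 4 genes above (9.09% of all genes) and 2 below (10.7%) without overlap. After scaling to a total of 1000000, 8 were higher (against 16.7%) and 0 lower (1.64%), with 9 above (23.2%) and 0 below (2.77%) without overlap. Under each of these scalings 0 genes passed both thresholds of the study, and *Slc25a1* was higher at an unadjusted p of at most 0.05.

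Relative to the median of all tested genes, the log2 fold changes of the 30 genes had a median of 0.055, with 17 above that median and 13 below it. The same quantity was 0.023 after median-of-ratios scaling and -0.026 with an offset for transcript length. Summed over the 34 genes, the FPKM was 3575, 4143 and 3783 in oEV-EMT and 2961, 3042 and 3486 in oEV-ctrl, without overlap. Such a sum is weighted towards the most abundant genes. By mean these were *Mdh2* (700 FPKM in oEV-EMT, 497 in oEV-ctrl), *Suclg1* (452 and 433) and *Idh3g* (364 and 241). After median-of-ratios scaling the sums were 3067, 3851 and 3869 in oEV-EMT and 3295, 3365 and 3473 in oEV-ctrl, and the groups overlapped. As a share of all FPKM in a library the 34 genes held 0.276%, 0.306% and 0.279% in oEV-EMT and 0.191%, 0.226% and 0.253% in oEV-ctrl.

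**Figure D1:**
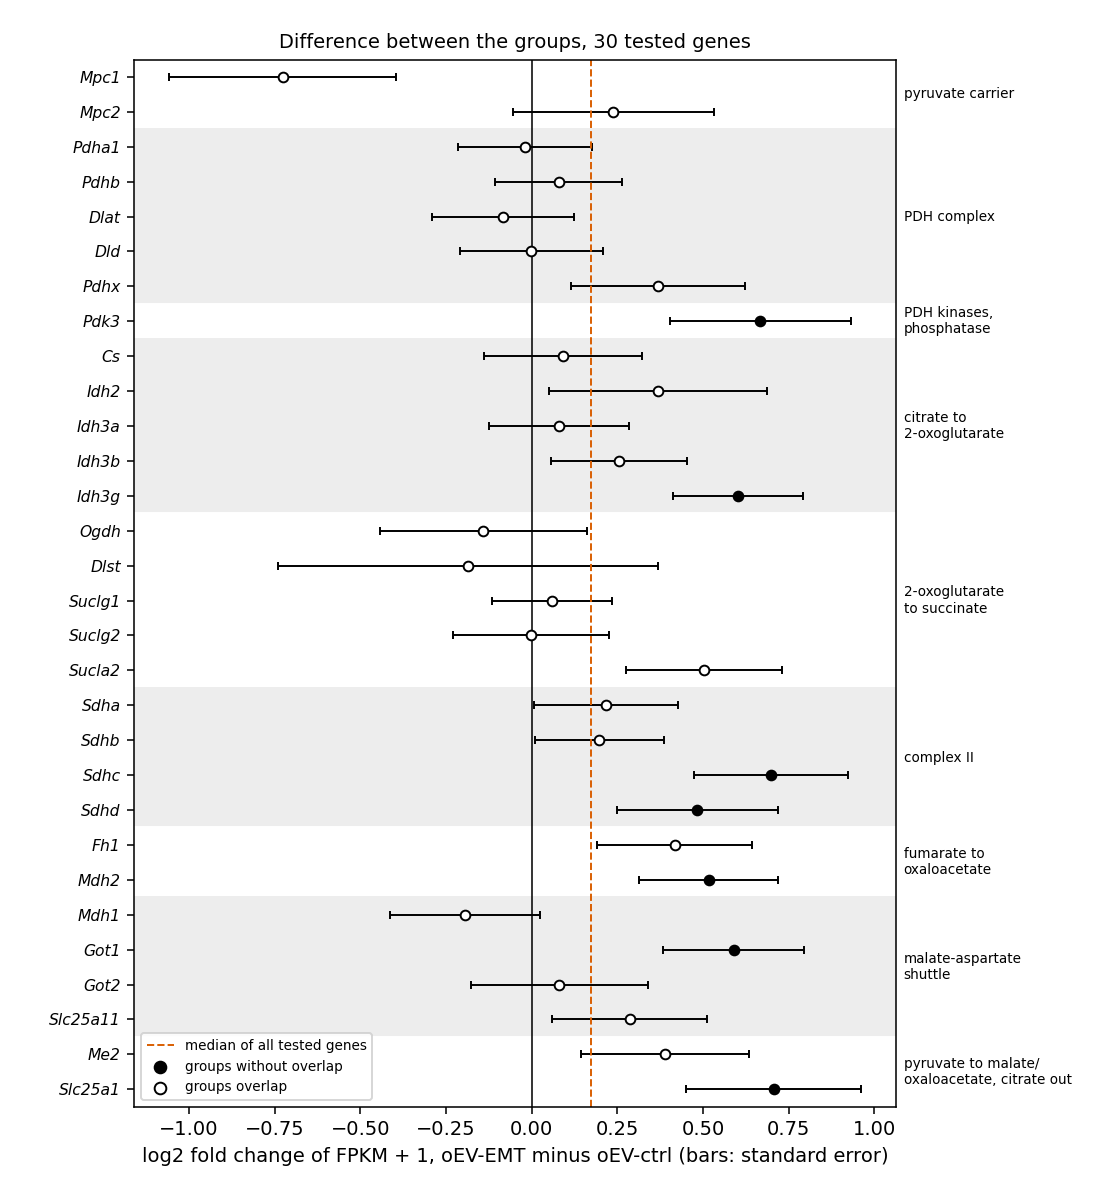
Log2 fold change of FPKM + 1 (horizontal axis, oEV-EMT minus oEV-ctrl) for the 30 tested genes, in the order of the pathway. Points are fitted values and bars their standard errors, filled points mark the 7 genes whose groups do not overlap, and the dashed line is the median of all 11924 tested genes, at 0.17. The filled points lie at 0.48 or above, and *Mpc1* stands alone at -0.73.

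The promoters of the 7 genes whose groups did not overlap in the deposited values are shown. These genes were chosen by that outcome, which 23.3% of the 30 tested genes and 18.1% of all tested genes had. RefSeq windows (GRCm38.p6) were at hand for 30 of the 34 genes and for 6 of these 7, *Sdhc* having none. Each window is the 250 bases before the RefSeq start, read 5′ to 3′ on the strand of the gene, and of these the stretch without an exon in GENCODE is printed. For *Idh3g* this is the 130 bases between its start and that of *Ssr4* on the other strand, and for *Sdhd* the 60 bases between it and *Timm8b*, while GENCODE starts *Pdk3* and *Mdh2* within the RefSeq window. Capitals mark matches, on either strand, to the motif of NRF1 (GCGC, any 2 bases, GCGC), the ETS motif (CCGGAAG), the motif of oestrogen-related receptors (AAGGTCA) and the GC box (GGGCGG), all linked to genes of mitochondria or of housekeeping functions.
*Pdk3*, chrX:93832202-93832400, minus strand: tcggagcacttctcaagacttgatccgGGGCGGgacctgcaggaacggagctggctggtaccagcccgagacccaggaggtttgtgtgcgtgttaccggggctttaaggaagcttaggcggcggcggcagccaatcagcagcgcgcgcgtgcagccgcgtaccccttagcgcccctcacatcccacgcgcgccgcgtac
*Idh3g*, chrX:73786898-73787027, minus strand: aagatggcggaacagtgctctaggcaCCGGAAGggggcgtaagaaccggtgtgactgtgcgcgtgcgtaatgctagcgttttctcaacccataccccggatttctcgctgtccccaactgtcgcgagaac
*Sdhd*, chr9:50603850-50603909, minus strand: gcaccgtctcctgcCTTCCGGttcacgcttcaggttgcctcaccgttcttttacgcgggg
*Mdh2*, chr5:135778399-135778479, plus strand: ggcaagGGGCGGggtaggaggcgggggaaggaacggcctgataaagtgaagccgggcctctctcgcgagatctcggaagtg
*Got1*, chr19:43524606-43524855, minus strand: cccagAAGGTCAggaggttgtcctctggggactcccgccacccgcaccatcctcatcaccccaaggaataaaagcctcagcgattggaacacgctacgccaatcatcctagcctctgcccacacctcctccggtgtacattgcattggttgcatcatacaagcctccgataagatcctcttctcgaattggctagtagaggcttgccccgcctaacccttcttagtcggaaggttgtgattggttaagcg
*Slc25a1*, chr16:17928220-17928469, minus strand: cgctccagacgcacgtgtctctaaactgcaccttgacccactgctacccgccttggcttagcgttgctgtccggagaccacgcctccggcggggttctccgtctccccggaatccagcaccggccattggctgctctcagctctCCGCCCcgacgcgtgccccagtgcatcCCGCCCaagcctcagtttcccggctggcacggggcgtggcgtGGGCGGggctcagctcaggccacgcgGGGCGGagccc

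The GC box was in the windows of 20 of the 30 genes (66.7%) and in 32.7% of all 32851 windows of the table. For each of the 30 genes 1 window was used, at the RefSeq start nearest to the GENCODE start. The 32851 windows were not limited in this way or by expression, so all these shares compare unlike sets. Of the 6 genes shown, *Pdk3* and *Mdh2* held 1 and *Slc25a1* held 4. The NRF1 motif was found in *Sucla2*, *Sdha* and *Sdhd* (10.0% of the 30, against 4.98% of all windows), in *Sdhd* within the exon of *Timm8b* that is not printed, and the ETS motif in *Mpc1*, *Idh3g* and *Sdhd* (10.0%, against 6.91%). The motif of oestrogen-related receptors was in the window of *Got1* alone (3.33%, against 4.08%). The 6 windows share no single one of these motifs, and a match describes the letters of the window, not a site in use.

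Pyruvate import was represented by the 2 subunits of the mitochondrial pyruvate carrier, which work as a pair in the inner membrane. *Mpc1* (ENSMUSG00000023861, chromosome 17 from 8282904 to 8297661) had 7.61, 13.5 and 6.69 FPKM in oEV-EMT and 9.98, 15.8 and 22.7 FPKM in oEV-ctrl. The 2 lowest values were in oEV-EMT and the 2 highest in oEV-ctrl, but oEV-EMT 2 lay above oEV-ctrl 1. The log2 fold change was -0.73 (SE 0.33, adjusted p = 0.331, unadjusted p = 0.0529), the lowest of the 30 genes, and relative to all tested genes it was -0.90. A pseudogene, *Mpc1-ps*, shares 11.03% of the 50-base stretches of the *Mpc1* transcripts and 85.4% of its own, so that reads could be assigned to either. *Mpc1-ps* was listed at 8.20, 18.9 and 7.59 FPKM in oEV-EMT and 12.8, 25.7 and 26.2 in oEV-ctrl, and *Mpc1* held 42.8% of the sum over it and the genes sharing its sequence. That sum differed by -0.83 on the log2 scale, with overlap between the groups.
*Mpc2* had 48.3, 104 and 103 FPKM in oEV-EMT and 77.6, 62.9 and 64.5 FPKM in oEV-ctrl, with the lowest and the highest value both in oEV-EMT. Its log2 fold change was 0.24 (SE 0.29, adjusted p = 0.727). In each library the listed value of *Mpc2* exceeded that of *Mpc1*. The ratio of *Mpc1* to *Mpc2* was 0.158, 0.130 and 0.0647 in oEV-EMT and 0.129, 0.251 and 0.351 in oEV-ctrl. With the sharing genes added to *Mpc1*, the sums were 16.1, 32.8 and 14.9 in oEV-EMT and 22.9, 42.1 and 49.4 in oEV-ctrl. These sums were nearer to *Mpc2*, though still below it in each library.

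None of the 5 genes of the PDH complex reached an unadjusted p of 0.05 or separated the groups in the deposited values. Their log2 fold changes ran from -0.084 to 0.37 with a median of -0.0010, or -0.17 relative to all tested genes, and 4 of the 5 were below all genes' median. *Pdhb*, the beta subunit of the decarboxylase E1, was the highest of the 5 with 252, 308 and 257 FPKM in oEV-EMT and 274, 232 and 266 FPKM in oEV-ctrl. *Pdha1*, its X-linked alpha subunit, ran from 52.3 to 66.2 FPKM, a steady share of *Pdhb*, with a ratio between 0.204 and 0.254 over the 6 libraries. *Dlat*, the acetyltransferase E2 that forms the core, had the lowest mean over the 6 libraries, with 12.4, 10.8 and 9.86 FPKM in oEV-EMT and 12.7, 11.02 and 11.4 FPKM in oEV-ctrl. After median-of-ratios scaling *Dlat* had 10.6, 10.0 and 10.1 in oEV-EMT and 14.1, 12.2 and 11.3 in oEV-ctrl, and *Pdha1* had 51.5, 61.6 and 53.5 in oEV-EMT and 62.5, 65.2 and 65.4 in oEV-ctrl, both without overlap. In oEV-ctrl alone the mean of *Pdhx* was lower (10.6 against 11.7 FPKM). *Dld*, the dehydrogenase E3 that also serves the 2-oxoglutarate dehydrogenase complex, ranged from 52.3 to 76.6 FPKM, and *Pdhx*, which anchors E3 to the core, from 9.04 to 16.8 FPKM. Stretches of *Pdhb* are shared with the pseudogene *Gm6123* and stretches of *Pdha1* with the overlapping gene *Map3k15*, but *Pdhb* held 96.5% and *Pdha1* 99.1% of the respective sums.

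Among the kinases that switch the PDH complex off, *Pdk3* was the one above the filter. *Pdk3* (ENSMUSG00000035232, chromosome X from 93764607 to 93832201) had 3.51, 4.32 and 6.48 FPKM in oEV-EMT and 2.03, 2.30 and 3.50 FPKM in oEV-ctrl. The groups did not overlap, though by a narrow margin between oEV-EMT 1 and oEV-ctrl 3. The fitted log2 fold change of *Pdk3* was 0.67, or 0.49 against the median of all genes (SE 0.26, adjusted p = 0.273, unadjusted p = 0.0298). After median-of-ratios scaling it had 3.01, 4.02 and 6.63 in oEV-EMT and 2.25, 2.54 and 3.49 in oEV-ctrl, and the groups overlapped.
*Pdk1*, which hypoxia induces in many cells, had 1.21, 0.546 and 0.424 FPKM in oEV-EMT and 0.274, 0.438 and 0.525 FPKM in oEV-ctrl, with oEV-EMT 1 above the other 5 libraries. *Pdk2* ranged from 0.439 to 0.997 FPKM and was highest in oEV-EMT 1 as well. The phosphatase *Pdp1*, which switches the complex on, ranged from 0.374 to 0.918 FPKM. Its relative *Pdp2*, not one of the 34, was more abundant in every library, at 13.5 to 19.9 FPKM, with a log2 fold change of 0.063, while the fourth kinase *Pdk4* did not exceed 0.221 FPKM.

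From citrate to 2-oxoglutarate, the 3 subunits of the NAD-dependent isocitrate dehydrogenase kept 1 order in every library, *Idh3g* above *Idh3b* above *Idh3a*. *Idh3g* (ENSMUSG00000002010, chromosome X from 73778963 to 73786897), a regulatory subunit, had 340.4, 361 and 392 FPKM in oEV-EMT and 234, 208 and 281 FPKM in oEV-ctrl. The lowest oEV-EMT value was well above the highest oEV-ctrl value, and the 3 oEV-EMT values were close together. The log2 fold change was 0.60, or 0.43 against the median of all genes (SE 0.19, adjusted p = 0.199, unadjusted p = 0.00968), the lowest p of the 30 genes. *Idh3b*, another regulatory subunit, ranged from 148 to 216 FPKM with a log2 fold change of 0.26 (SE 0.20, adjusted p = 0.564). *Idh3a*, the catalytic subunit, ranged from 126 to 179.7 FPKM with a log2 fold change of 0.079 (SE 0.20, adjusted p = 0.874), so that the differences of the 3 subunits were of unequal size, without a test of the inequality.
*Idh2*, the NADP-dependent enzyme of the mitochondrion, had the lowest mean of these genes over the 6 libraries, with 44.5, 63.9 and 26.3 FPKM in oEV-EMT and 29.96, 26.9 and 42.4 FPKM in oEV-ctrl. Its highest and lowest values were both in oEV-EMT. Citrate synthase, *Cs*, ranged from 31.3 to 52.3 FPKM, with the extremes again in oEV-EMT, and its mean was above that of *Idh2* in oEV-ctrl but below it in oEV-EMT. It had a log2 fold change of 0.091 (SE 0.23, adjusted p = 0.871).

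From 2-oxoglutarate to succinate, 4 of the 5 genes lay below the median of all tested genes, with a relative median of -0.17. *Suclg1*, the alpha subunit that both succinyl-CoA ligases share, had 412, 491 and 453 FPKM in oEV-EMT and 406, 451 and 442 FPKM in oEV-ctrl. These were the steadiest values of the 30 genes, with a pooled SD of 0.105 on the log2 scale, at the 3.12th percentile of all tested genes. The most variable was *Dlst*, the E2 of the 2-oxoglutarate dehydrogenase complex, with 7.68, 20.7 and 4.63 FPKM in oEV-EMT and 16.6, 12.2 and 5.73 FPKM in oEV-ctrl. Its pooled SD was 0.865, at the 97.6th percentile, and both groups held high and low libraries. The log2 fold change of *Dlst* was -0.19 (SE 0.55, adjusted p = 0.894). *Ogdh*, the E1 of that complex, ranged from 7.13 to 17.6 FPKM with a log2 fold change of -0.14 (SE 0.30, adjusted p = 0.848). The median pooled SD of the 30 genes was 0.268, close to the 0.288 of all tested genes.
The 2 beta subunits decide whether the ligase makes ATP or GTP. *Sucla2*, of the ATP-forming enzyme, had 123, 170.3 and 141 FPKM in oEV-EMT and 80.1, 102 and 127 FPKM in oEV-ctrl, and only oEV-EMT 1 lay below oEV-ctrl 3. Its fitted log2 fold change was 0.50 (SE 0.23, adjusted p = 0.327). *Suclg2*, of the GTP-forming enzyme, ranged from 41.8 to 63.3 FPKM with a log2 fold change of -0.0018, and the pseudogene *Gm15163*, which shares 16.0% of its stretches, leaves it 82.7% of the common sum. *Sucla2* exceeded *Suclg2* in each library, with ratios of 1.95, 3.21 and 3.38 in oEV-EMT and 1.76, 2.06 and 2.02 in oEV-ctrl.

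The 4 genes of complex II, the succinate dehydrogenase that links the cycle to the respiratory chain, all lay above the median of all tested genes, with a relative median of 0.18. *Sdhc* (ENSMUSG00000058076, chromosome 1 from 171127165 to 171150603), one of the membrane anchors, had 87.6, 78.2 and 90.1 FPKM in oEV-EMT and 39.7, 53.9 and 65.9 FPKM in oEV-ctrl. The oEV-EMT values were close to each other and all above the oEV-ctrl values, which spread further. Its mean levels were 85.3 ± 6.24 in oEV-EMT and 53.2 ± 13.1 in oEV-ctrl (FPKM, SD, n = 3 each), and the log2 fold change was 0.70, or 0.53 against the median of all genes (SE 0.23, adjusted p = 0.207, unadjusted p = 0.0109). *Sdhd* (ENSMUSG00000000171, chromosome 9 from 50596357 to 50603812), the other anchor, had 188, 203 and 299.8 FPKM in oEV-EMT and 131, 185 and 173 FPKM in oEV-ctrl. The groups did not overlap, but oEV-EMT 1 exceeded oEV-ctrl 2 by little, and after median-of-ratios scaling they overlapped. The log2 fold change of *Sdhd* was 0.48, or 0.31 against the median of all genes (SE 0.23, adjusted p = 0.359, unadjusted p = 0.0659).
*Sdhb*, the iron-sulphur subunit, was the highest of the 4 on average with 261, 320.2 and 258 FPKM in oEV-EMT and 222, 241 and 267 FPKM in oEV-ctrl, and *Sdha*, the flavoprotein that binds succinate, the lowest on average with 55.1, 55.5 and 40.01 FPKM in oEV-EMT and 42.3, 40.3 and 45.4 FPKM in oEV-ctrl. Both overlapped between the groups, with log2 fold changes of 0.20 (SE 0.19, adjusted p = 0.645) and 0.22 (SE 0.21, adjusted p = 0.650). Relative to the median of all genes these were 0.026 and 0.044, close to that median for their standard errors. Complex II has nuclear subunits alone, and its 4 assembly factors *Sdhaf1*, *Sdhaf2*, *Sdhaf3* and *Sdhaf4* had log2 fold changes of 0.24, 0.14, -0.027 and 0.46, with adjusted p-values of 0.383 or more.

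**Figure D2:**
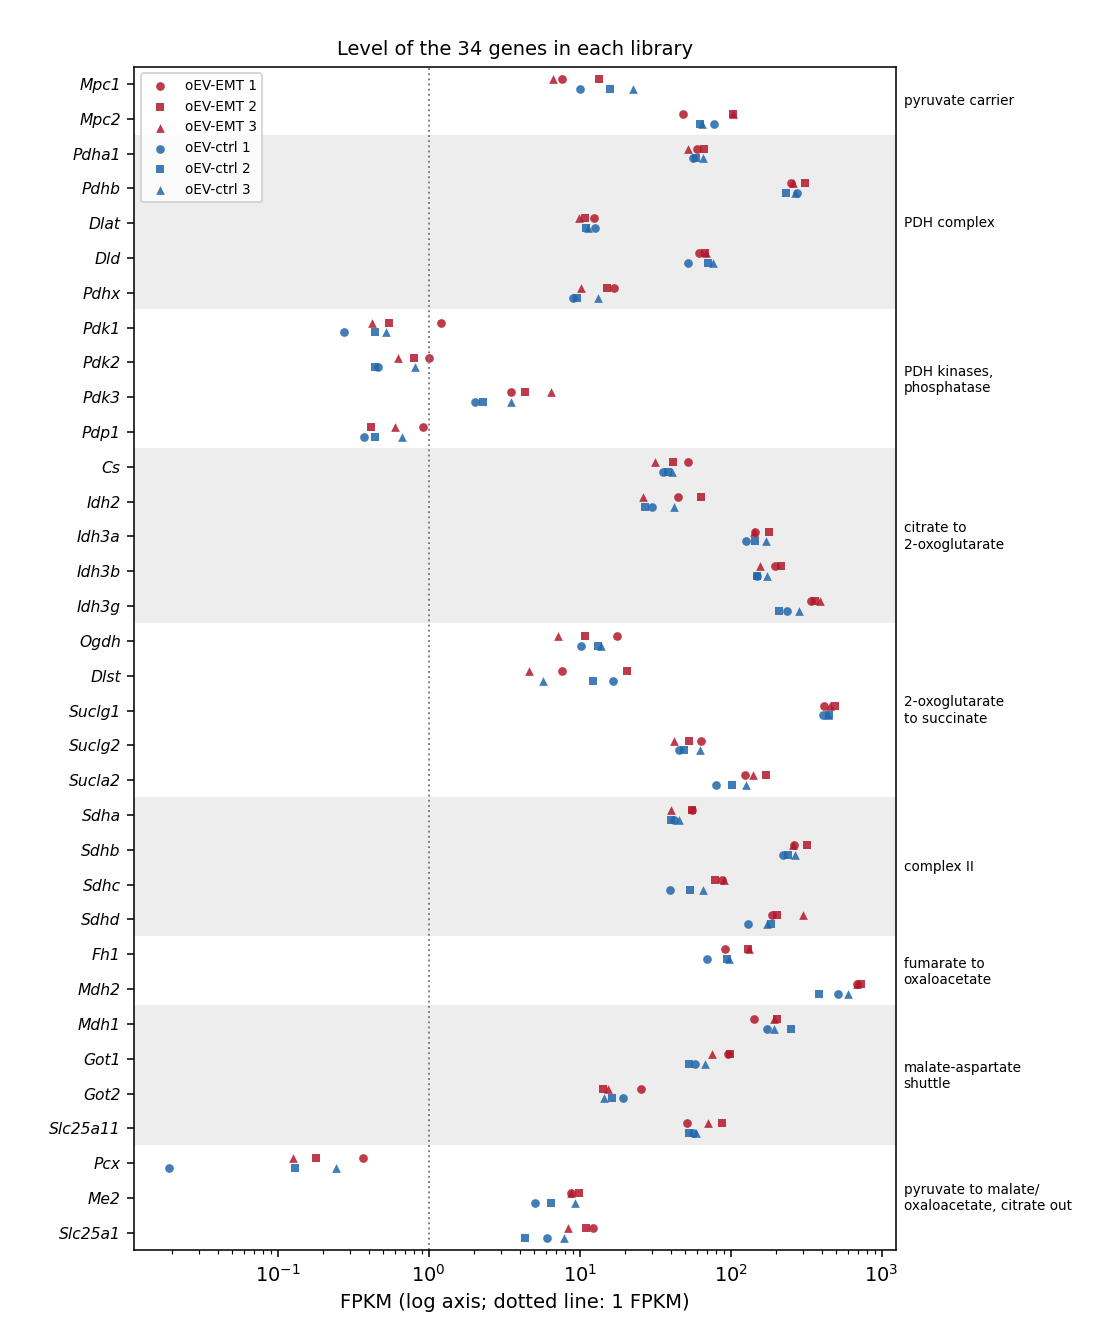
FPKM (logarithmic horizontal axis) of the 34 genes in each of the 6 libraries, red for oEV-EMT and blue for oEV-ctrl, with 1 symbol shape per replicate number, in the order of the pathway. The dotted line marks 1 FPKM. *Mdh2*, *Suclg1* and *Idh3g* lie furthest to the right, *Pdk1*, *Pdk2*, *Pdp1* and *Pcx* lie mostly below 1 FPKM, and red and blue points are interleaved for most genes.

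The last steps of the cycle run from fumarate to oxaloacetate. *Mdh2* (ENSMUSG00000019179, chromosome 5 from 135778480 to 135790398), the mitochondrial malate dehydrogenase, had 685, 733 and 683 FPKM in oEV-EMT and 509.7, 384 and 598 FPKM in oEV-ctrl. By mean level it was the most abundant of the 34 genes, at the 97.8th percentile of all tested genes, and the 3 oEV-EMT values were alike while the oEV-ctrl values spread. Means were 700.4 ± 28.5 in oEV-EMT and 497 ± 108 in oEV-ctrl (FPKM, SD, n = 3 each). Its fitted log2 fold change was 0.52, or 0.34 against the median of all genes (SE 0.20, adjusted p = 0.269, unadjusted p = 0.0286). After median-of-ratios scaling *Mdh2* had 588, 682 and 698 in oEV-EMT and 567, 425 and 596 in oEV-ctrl, and the groups overlapped. *Fh1*, the fumarase, had 91.8, 129 and 131 FPKM in oEV-EMT and 70.2, 95.02 and 97.5 FPKM in oEV-ctrl. Its log2 fold change was 0.42 (SE 0.23, adjusted p = 0.401), and only oEV-EMT 1 lay within the oEV-ctrl range.

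Of the malate-aspartate shuttle, the cytosolic aspartate aminotransferase differed most. *Got1* (ENSMUSG00000025190, chromosome 19 from 43499752 to 43524605) had 96.3, 98.7 and 74.6 FPKM in oEV-EMT and 57.7, 52.9 and 67.1 FPKM in oEV-ctrl. The groups were apart in the deposited values and also after median-of-ratios and upper quartile scaling. *Got1* had a fitted log2 fold change of 0.59, or 0.42 against the median of all genes (SE 0.21, adjusted p = 0.232, unadjusted p = 0.0164). *Got2*, the mitochondrial aminotransferase and the lowest of the 4 shuttle genes, had 25.3, 14.2 and 15.4 FPKM in oEV-EMT and 19.5, 16.5 and 14.4 FPKM in oEV-ctrl and a log2 fold change of 0.080 (SE 0.26, adjusted p = 0.901). *Mdh1*, the cytosolic malate dehydrogenase and the highest of the 4, had 143, 204 and 192 FPKM in oEV-EMT and 174, 249 and 194 FPKM in oEV-ctrl and one of the 3 lowest log2 fold changes of the 30 genes, -0.19 (SE 0.22, adjusted p = 0.700). *Slc25a11*, which exchanges malate for 2-oxoglutarate, ranged from 51.7 to 87.3 FPKM with a log2 fold change of 0.29 (SE 0.23, adjusted p = 0.575). *Rnf167*, on the opposite strand, overlaps 8.92% of its exon bases, and how the counting treated strand is not stated. The aspartate-glutamate carrier of the shuttle was mainly *Slc25a13*, at 7.56 to 16.8 FPKM against 0.958 to 2.24 FPKM for *Slc25a12*.

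Of the 3 genes that refill the cycle or export citrate, *Slc25a1* had the highest log2 fold change of the 30 tested. *Slc25a1* (ENSMUSG00000003528, chromosome 16 from 17925223 to 17928219), the carrier that exports citrate for lipid synthesis, had 12.2, 10.9 and 8.34 FPKM in oEV-EMT and 6.10, 4.37 and 7.89 FPKM in oEV-ctrl. The lowest oEV-EMT value was just above the highest oEV-ctrl value, and the groups stayed apart after median-of-ratios and upper quartile scaling. Means were 10.5 ± 1.97 in oEV-EMT and 6.12 ± 1.76 in oEV-ctrl (FPKM, SD, n = 3 each), and the log2 fold change was 0.71, or 0.53 against the median of all genes (SE 0.26, adjusted p = 0.241, unadjusted p = 0.0196). *Acly*, the cytosolic enzyme that splits the exported citrate, ranged from 17.1 to 19.2 FPKM with a log2 fold change of 0.078. *Me2*, a mitochondrial malic enzyme that makes pyruvate from malate, had 8.73, 9.92 and 8.79 FPKM in oEV-EMT and 5.03, 6.48 and 9.28 FPKM in oEV-ctrl, and oEV-ctrl 3 lay within the oEV-EMT range. Its log2 fold change was 0.39 (SE 0.25, adjusted p = 0.475). *Pcx*, the pyruvate carboxylase that makes oxaloacetate, had 0.367, 0.179 and 0.126 FPKM in oEV-EMT and 0.0191, 0.131 and 0.245 FPKM in oEV-ctrl, the lowest mean of the 34 genes. At the derived depth and the length of its longest transcript this is between 1.41 read pairs in oEV-ctrl 1 and 55.9 in oEV-EMT 1. That depth is approximate, and no fold change is given.

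Ratios of partner genes within a library do not depend on the scaling between libraries, and for 8 pairs the groups were tested with exact two-sided permutation tests, in which 3 libraries against 3 cannot give a p below 0.1. The ratio of cytosolic *Mdh1* to mitochondrial *Mdh2* was 0.209, 0.278 and 0.282 in oEV-EMT and 0.342, 0.649 and 0.325 in oEV-ctrl. Each oEV-EMT ratio was below each oEV-ctrl ratio. The geometric mean in oEV-EMT was 0.610 times that in oEV-ctrl, a log2 difference of -0.71 (exact permutation test, p = 0.1, adjusted p = 0.6 over the 8 pairs). Without oEV-ctrl 2, where the ratio was highest, the log2 difference was -0.39. The other 7 pairs overlapped. For *Mpc1* to *Mpc2* the log2 difference was -1.03 (exact permutation test, p = 0.3), for *Sucla2* to *Suclg2* 0.51 (p = 0.3 from the same exact test) and for *Got1* to *Got2* 0.51 (exact p = 0.2). For *Pdha1* to *Pdhb* it was -0.10 (exact p = 0.4), for *Idh3a* to *Idh2* -0.30 (exact p = 0.5), for *Pdk1* to *Pdk3* -0.15 (exact p = 0.8) and for *Dlst* to *Dlat* -0.13 (exact p = 0.9). Adjusted over the 8 pairs these p-values were between 0.6 and 0.9. The *Mpc1* ratio rests on a level that reads of *Mpc1-ps* could alter. *Pdk1* did not pass the filter, and with a pseudocount of 1 the log2 difference of *Pdk1* to *Pdk3* was -0.40.

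**Figure D3:**
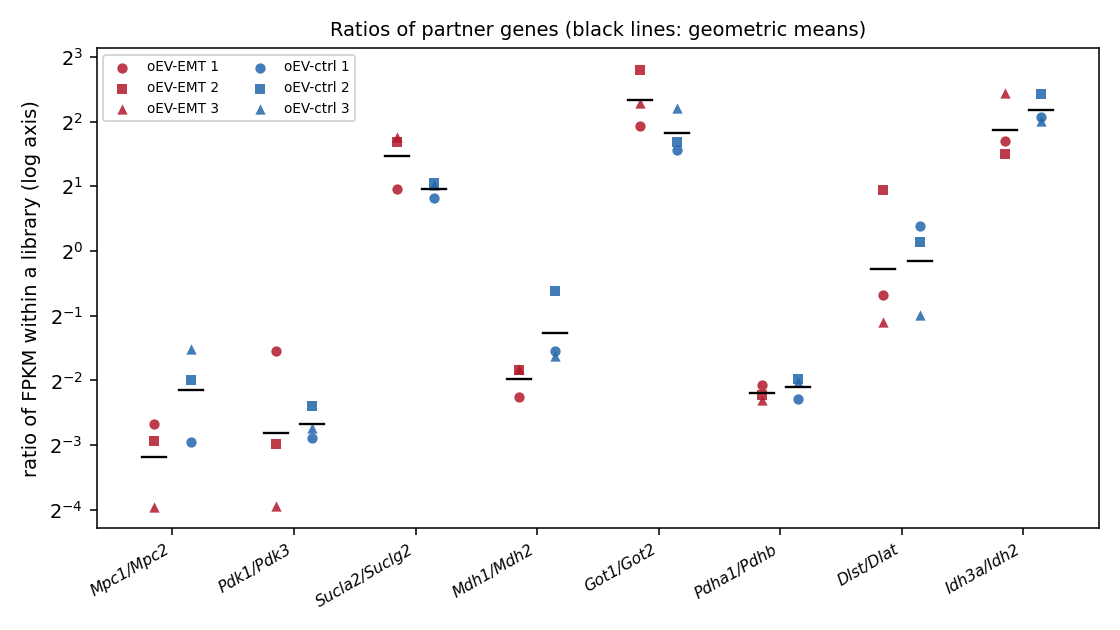
Ratio of FPKM within each library (logarithmic vertical axis) for the 8 pairs of partner genes, red for oEV-EMT and blue for oEV-ctrl, with black lines at the geometric mean of each group. The groups are apart for *Mdh1*/*Mdh2*, from 0.209 to 0.282 in oEV-EMT and from 0.325 to 0.649 in oEV-ctrl, and overlap for the other 7 pairs.

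A further 36 genes of the same pathways were listed by role, of which 27 were tested. At an unadjusted p of at most 0.05, 5 of them were higher in oEV-EMT, where 12.8% of all tested genes were, and 0 were lower, where 2.55% were, and 0 passed both thresholds. In the same 5 genes the groups did not overlap, against 18.1% of all tested genes that were higher without overlap. The highest log2 fold change was that of *Idh1*, the cytosolic NADP-dependent isocitrate dehydrogenase, with 79.6, 93.6 and 62.8 FPKM in oEV-EMT and 38.4, 45.2 and 52.03 FPKM in oEV-ctrl and a log2 fold change of 0.78 (SE 0.22, adjusted p = 0.174). *Gls2*, a glutaminase, had 3.94, 4.51 and 5.76 FPKM in oEV-EMT and 1.86, 2.57 and 2.84 FPKM in oEV-ctrl and a log2 fold change of 0.74 (SE 0.23, adjusted p = 0.194). *Gcsh*, the lipoate-carrying protein of the glycine cleavage system, had a log2 fold change of 0.60 (SE 0.21, adjusted p = 0.234), *Ogdhl*, an E1 related to *Ogdh*, of 0.58 (SE 0.26, adjusted p = 0.321) and the dicarboxylate carrier *Slc25a10* of 0.51 (SE 0.23, adjusted p = 0.323). By role, 2 of the 5 tested further cycle genes were among the 5, 1 of 5 lipoylation genes, 1 of 5 further shuttle and carrier genes, 1 of 4 genes of glutamate entry and citrate use, and 0 of the 4 assembly factors of complex II, the 3 genes of lactate and monocarboxylate handling and the 1 further PDH regulator. *Ldha*, the lactate dehydrogenase subunit that prevailed here, had 57.5, 36.3 and 29.3 FPKM in oEV-EMT and 33.3, 20.03 and 25.99 FPKM in oEV-ctrl and a log2 fold change of 0.59 (SE 0.29, adjusted p = 0.359).

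The 70 tested genes of complexes I, III and IV and the ATP synthase are set beside the 30 genes as the next step of respiration. The study had reported lower oxidative phosphorylation genes in oEV-EMT from the same libraries, and this list was chosen with that known. By RT-PCR it found *Ndufa4* and *Cox7c* lower, and *Uqcrh* and *Atp5l* without a statistical difference. Relative to all tested genes the median of the 70 was -0.24. Of the 70, 57 had a log2 fold change under the median of all genes, against 13 of the 30. At an unadjusted p of at most 0.05, 1 of the 70 was higher, where 12.8% of all tested genes were, and 12 were lower, where 2.55% were. Without overlap 4 were higher (18.1% of all genes) and 12 lower (4.34%). The transcripts of these 70 genes are short, with a median longest transcript of 1025.5 bases against 2518 for the 30 genes and 2667 for all tested genes. With an offset for length the relative median of the 70 was -0.29. The offset used the longest annotated transcript of each gene, which need not be the one expressed. Whether length had a part in the differences was not tested. The 11 tested glycolysis genes had a relative median of 0.25, with 1 higher at an unadjusted p of at most 0.05 and 0 lower, against the same shares of all genes. No test was made between these lists.

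**Figure D4:**
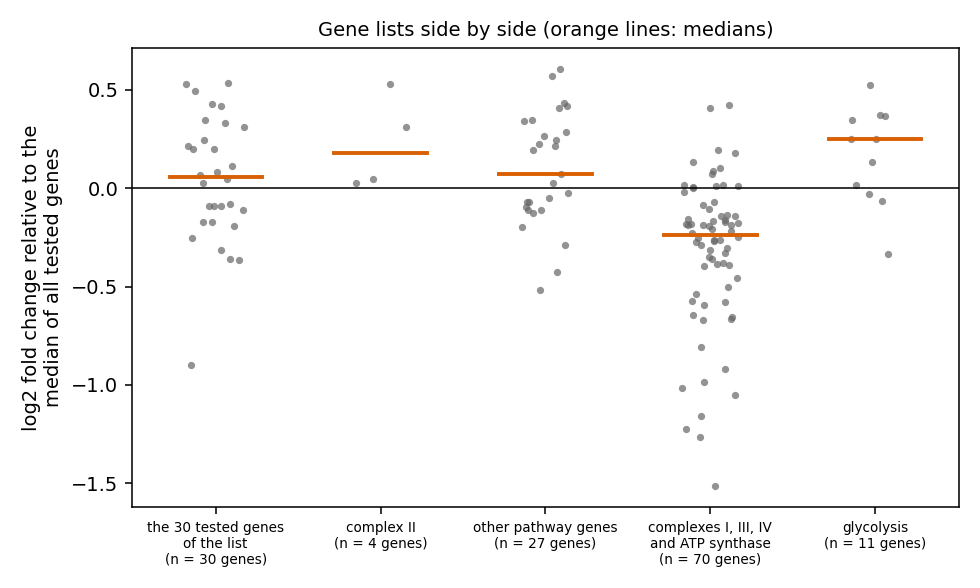
Log2 fold change relative to the median of all tested genes (vertical axis) for the 30 tested genes, the 4 complex II genes among them, the 27 other pathway genes, the 70 genes of complexes I, III and IV and the ATP synthase, and the 11 glycolysis genes. Each point is a gene and orange lines are medians, at 0.055, 0.18, 0.070, -0.24 and 0.25.

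Markers of the cell types of the blastocyst were set beside the 7 genes without overlap. The summed FPKM of 5 epiblast markers was 136, 130.4 and 102 in oEV-EMT and 47.8, 73.9 and 97.9 in oEV-ctrl, without overlap. *Nanog*, *Pou5f1* and *Fgf4* were each higher without overlap, while *Sox2* and *Tdgf1* overlapped. Of the 5, 1 was below the median of all tested genes, with a log2 fold change of -0.32. Of all tested genes 18.1% were higher without overlap and 4.34% lower, which applies to each marker list. The sum of 5 primitive endoderm markers was 46.9, 40.7 and 30.3 in oEV-EMT and 34.1, 30.6 and 36.1 in oEV-ctrl, with overlap. Of these 5, *Gata4* and *Sox7* were higher without overlap, while *Sox17*, *Pdgfra* and the most abundant, *Gata6*, overlapped, with log2 fold changes of 0.95, 0.075 and -0.19. The sum of 8 trophectoderm markers ranged from 3134 to 4741 in oEV-EMT and from 3079 to 4835 in oEV-ctrl, and 0 of the 8 were without overlap. Of these 8, 7 were below the median of all tested genes, with log2 fold changes from -0.39 to 0.67 over the list. In the limma fit 1 was higher at an unadjusted p of at most 0.05 (12.8% of all tested genes) and 0 were lower (2.55%). Of the 4 blood markers, the macrophage marker *Cd68* was also higher in every oEV-EMT library (6.24, 12.5 and 14.2 FPKM in oEV-EMT and 3.55, 5.89 and 6.21 FPKM in oEV-ctrl). The part of these cell types in the differences of *Got1*, *Idh3g*, *Mdh2*, *Pdk3*, *Sdhc*, *Sdhd* and *Slc25a1* was not tested.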

How the data were processed

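RNA from 6 pools of 10 mouse blastocysts, 3 per group, was selected for polyadenylated transcripts and sequenced in pairs. Per the study's methods, reads were mapped (to mm10 by the submitters' processing notes) and assembled with StringTie, and a list of changed genes was made with DESeq2, which was not used here. The aligner is not given in the sources used here. The authors deposited 1 value per gene and library. The methods call it TPM, but the sums per library lay between 1293175 and 1551567, so the deposited values were taken as FPKM. Read totals are unknown, and no interval from counting is given. Of 55774 identifiers 55227 matched GENCODE M21 (GRCm38), which gave names, positions and lengths.

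Genes that reached 1 FPKM in 3 or more libraries were fitted on log2(FPKM + 1), a pseudocount of 1, with limma 3.58.1 in R 4.3.3 (trended, robust variance, Benjamini-Hochberg adjustment over 11924 genes). A fold change on this scale understates that of low genes. A design for counts could not be used on FPKM. The code was tested on simulated data. Single ratios were compared by exact permutation tests. Shared sequence means identical 50-base stretches, from 10% of a transcript set on. Depth was read from the commonest low value of FPKM times length. Values of every library are given for genes with an unadjusted p of at most 0.05 or without overlap, the 3 highest and 3 lowest log2 fold changes, and the highest and lowest level of each role. The genes, lists and tests were chosen with earlier results of these data known. Atp5o and Aldoa matched no single identifier and were left out of the comparison lists. Alternatives covered scaling, filter, pseudocount, variance model, library weights, a replicate block, fits without each library, and an offset for transcript length by loess (span 0.5). Tables and plots were made in Python 3.11.15 with matplotlib 3.10.9.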

Additional observations from a re-analysis of the deposited data

How the results depend on the processing

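Under every alternative 0 of the 30 tested genes passed both thresholds, and of all tested genes 0 did with the settings described, 104 with libraries weighted by quality, 21 with a replicate block, 4 without oEV-EMT 1, 1 without oEV-EMT 3 and 16 without oEV-ctrl 3. The 6 genes higher at an unadjusted p of at most 0.05 became 2 after median-of-ratios scaling, 1 after upper quartile scaling and 10 with library weights, and from 2 to 10 with each library left out. The 0 lower became 1 after either of these scalings and with the length offset, and from 0 to 1 with each library left out. Of all tested genes 2.55% were lower with the settings described, and 6.46%, 6.73% and 2.11% with these alternatives. With each library left out that share ran from 1.64% to 4.84%. The 7 higher without overlap became 4 after median-of-ratios or upper quartile scaling (9.81% and 9.09% of all genes). They became from 7 to 12 with each library left out, where all genes also separate more often (21.9% to 30.6% higher, against 18.1%). The 0 lower without overlap (4.34% of all genes) became 2 after either scaling (10.3% and 10.7%). With each library left out they became from 0 to 2 (5.87% to 12.5% of all genes). The relative median of 0.055 was 0.19 without a filter and 0.17 with library weights, and from -0.057 (without oEV-EMT 2) to 0.088 with each library left out, against a pooled SD between libraries of 0.0957. The log2 fold change of *Dlst* was -0.19, turned to 0.57 with library weights, 0.24 without oEV-EMT 3 and 0.11 without oEV-ctrl 1, and ran from -0.73 to 0.24 with each library left out. With each library left out, the log2 difference of the ratio of *Pdk1* to *Pdk3* ran from -0.79 to 0.41, and that of *Dlst* to *Dlat* from -0.74 to 0.28. The causes were not tested. The other 9 genes followed singly kept their direction, with adjusted p-values (limma) from 0.0899 to 0.960 over all alternatives. *Pdk3* had no value under a minimum FPKM of 5, and ratios were recomputed only with a pseudocount of 1, paired, and with each library left out.

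Replicate numbers are shared between the groups, but nothing says that they mark a shared batch. The deviations of same-numbered libraries from their group means correlated at 0.119, -0.0442 and 0.0388 across 11924 genes, so the libraries were not treated as pairs, and not every library correlated best with its own number. With a replicate block, 6 of the 30 genes were higher at an unadjusted p of at most 0.05 and 1 was lower. Of all tested genes 11.2% were higher and 2.36% lower in that fit.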
